A study of Homo sapiens with 54 samples.

Results

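MYC and 33 genes of ribosome biogenesis, 34 in all, were followed through a time course of cytokine and growth factor treatment in HT-29 cells, an epithelial line from a colon adenocarcinoma. The genes were chosen by name, as a transcription factor and factors that make, modify, fold or assemble the ribosome's subunits. Earlier results of these data were known at that choice. Of the 34 genes, 28 had a probe set listed under their own symbol alone. All 28 passed the filter on low signal and were tested among 13422 probe sets. NOP56 and DKC1 have probe sets that are also listed with small RNAs in their introns. They are described through the probe set of their own RefSeq transcript and stay outside every count. BOP1 and PPAN share their probe sets with another symbol, MIR7112 for BOP1 and PPAN-P2RY11 for PPAN. These probe sets passed the filter, but none is listed with the gene's own RefSeq transcript, so both genes are not analysed here. No listed probe set was found for GNL3 and EBNA1BP2.

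Every culture was primed with interferon-gamma at 200 U/ml for 24 h, so the untreated cells carried that treatment too. The cells then received nothing more ("untreated") or were given the inflammatory cytokine TNF (tumour necrosis factor), the growth factor EGF (epidermal growth factor), the hormone insulin, or mixtures of them. Each is named here with its dose in ng/ml. The single factors were TNF 5, TNF 100, EGF 100 and insulin 500. The mixtures were TNF 100 + EGF 100, TNF 100 + insulin 500, TNF 5 + EGF 1 and TNF 5 + insulin 5. RNA was taken at 4, 8 and 16 h, with 2 biological replicates in each of the 27 groups, so 54 Affymetrix arrays were compared. The cells are 1 tumour line, and no culture without interferon-gamma was analysed here.

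Ribosomes are built in the nucleolus. RNA polymerase I transcribes the precursor of the ribosomal RNAs, small nucleolar ribonucleoproteins (snoRNPs) modify it, and separate sets of assembly factors trim and fold the parts of the small and the large subunit. MYC binds DNA as a dimer with MAX at the E-box CACGTG and is known to promote transcription of many of these factors, so that ribosome production follows growth signals. In colon cancer cells MYC is commonly high through the Wnt pathway, and insulin and EGF are known to act on ribosome production through the mTOR and MAP kinase pathways.

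The promoter windows show which of these genes hold the MYC and MAX site itself near their start. RefSeq (GRCh38.p14) gave windows of 300 bases, from 250 before the start to 50 after it, for 28 of the 34 genes. None was listed for MYC, NOLC1, RRP12, RRS1, BOP1 and RRP1B. The genes with a window include NOP56, DKC1, GNL3, EBNA1BP2 and PPAN, so they are not the 28 tested genes. The letters CACGTG, which read the same on both strands, stood in a window of 15 of these 28 genes with a window (53.6%), against 2396 of 27305 genes in the whole table (8.77%). GNL3 and EBNA1BP2, without a listed probe set, are among the 15. Counted by window, 44.4% of the 36 windows and 7.26% of all 35116 held it. The stretches below show the site in genes that fell with TNF 100 at 16 h (the first 9) and in genes that did not pass there (the last 3). Each has 30 bases, 5′ to 3′ on the gene's strand, with the E-box in capitals.
BYSL: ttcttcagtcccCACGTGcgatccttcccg
NLE1: ctctttctcctcCACGTGgggacgcaggat
WDR43: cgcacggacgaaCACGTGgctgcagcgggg
MRTO4: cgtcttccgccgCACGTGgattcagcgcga
DDX21: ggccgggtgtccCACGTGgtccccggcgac
NOP14: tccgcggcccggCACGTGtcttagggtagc
PNO1: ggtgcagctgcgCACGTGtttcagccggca
PES1: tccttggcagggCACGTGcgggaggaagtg
UTP18: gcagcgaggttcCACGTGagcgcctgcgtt
FBL: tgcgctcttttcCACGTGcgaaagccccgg
GAR1: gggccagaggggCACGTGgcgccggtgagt
RRP9: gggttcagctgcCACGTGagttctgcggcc
These lie at chr6:41921515-41921544 on the plus strand for BYSL, chr17:35142274-35142303 on the minus strand for NLE1 and chr2:28894658-28894687 on the plus strand for WDR43. MRTO4 is at chr1:19251807-19251836 (plus), DDX21 at chr10:68956604-68956633 (plus) and NOP14 at chr4:2963374-2963403 (minus). PNO1 is at chr2:68157885-68157914 (plus), PES1 at chr22:30591880-30591909 (minus) and UTP18 at chr17:51260538-51260567 (plus). FBL is at chr19:39846356-39846385 (minus), GAR1 at chr4:109815781-109815810 (plus) and RRP9 at chr3:51941892-51941921 (minus). In 10 of the 12 the site shown starts within the first 50 transcribed bases, from base 4 in WDR43 to base 32 in GAR1. In DDX21 it starts 31 bases and in RRP9 5 bases before the start. UTP18 has another site 89 bases before its start, and NOP2, which did not pass at 16 h either, holds a site at base 36. WDR3, WDR12, WDR74, NOP16 and NHP2, which also fell with TNF 100 at 16 h, had no such letters in their windows. Neither had NIP7, HEATR1, NCL, NPM1 and POLR1B, which did not pass there. A match describes the letters only, and no binding was measured.

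The mean signal, trimmed by 2% at each end, was 500.2 in every array. Median signals ran from 110.9 to 168, and replicates correlated across probe sets at 0.945 to 0.977. The ACTB ratio compares signal near the 3′ and the 5′ end of that transcript and goes up as RNA breaks down. By time and replicate, with 9 arrays each, its log2 median was 0.32 in 8 h replicate 2 and 0.31 in 16 h replicate 2. In the other 4 sets it lay between −0.22 (8 h replicate 1) and 0.05 (16 h replicate 1). The highest single arrays were TNF 100 (1.19) and insulin 500 (0.98) of 8 h replicate 2 and TNF 100 + insulin 500 of 16 h replicate 1 (0.63), which also had the lowest median signal. The epithelial markers EPCAM, KRT8, KRT18, KRT20, CDH1 and LGALS4 had median signals from 4231 for CDH1 to 25990 for KRT18, whereas the intestinal regulators CDX1 and CDX2 did not pass the filter. VIL1 passed with a median of 458.8 and a lowest signal of 26.02. Of the markers of other cell types, 3 of 5 for fibroblasts, 2 of 3 for leukocytes and 1 of 3 for endothelium passed. Their medians were 388.2 for COL1A1, 179.6 for DCN, 85.97 for COL1A2, 131.7 for CD3E, 89.37 for CD14 and 147.7 for PECAM1. Those that did not pass were LUM (1.74), COL3A1 (60.93), PTPRC (21.1), VWF (33.08) and CDH5 (8.99).

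MYC was lowest in untreated cells at 4 h and rose in them with time. Its signal in untreated cells was 1452 and 1475 in the 2 arrays at 4 h, 3346 and 2775 at 8 h, and 4640 and 3795 at 16 h. The 3 times did not overlap. From 4 to 16 h this was a rise of log2 1.51 ± 0.24 (SE, n = 2 arrays per time, adjusted p = 6.93e-05), the largest of the 28 genes in untreated cells. Here and below a log2 difference is taken on signal plus a pseudocount of 12.49. The p is limma's moderated F test over the differences that make up a comparison, which are those at the several times unless stated. It is adjusted by Benjamini and Hochberg over all kept probe sets and called under 0.05.

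All 8 treatments had more MYC than untreated cells at 4 h. With TNF 100 its signal was 2173 and 1505, and with EGF 100 it was 3646 and 2650. Insulin 500 gave 2831 and 2143, TNF 5 gave 3037 and 2128, and the 4 mixtures lay between 2239 and 3163. Each treatment's arrays lay above both untreated arrays, although the lower TNF 100 array did so by a small margin. Over the 8 treatments the difference at 4 h was log2 0.79 ± 0.18 (n = 2 untreated and 16 treated arrays, adjusted p = 0.0363), in a comparison added after the values were seen. The F test there ran over the 8 treatments, so its p asks whether any of them differed and does not test their mean. The same test called RRS1 and WDR3, beside 3.58% of all probe sets called higher and 2.53% lower. WDR3 was called with a mean of 0.02 ± 0.14: at 4 h its signal was 880.7 and 1044 in untreated cells, 1537 and 1337 with insulin 500, 1210 and 1278 with EGF 100, and 695.6 and 796 with TNF 100. RRS1 was called with −0.26 ± 0.18. WDR3 lost its call without insulin 500 replicate 1 (adjusted p = 0.0959). MYC lost this call when an untreated array was left out (adjusted p = 0.205 without replicate 1 and 0.197 without replicate 2). It also lost it without EGF 100 replicate 1 (0.0798), TNF 5 + insulin 5 replicate 1 (0.0529) or TNF 100 replicate 2 (0.0853), all at 4 h. With arrays centred on their median none of the 3 genes passed; this scaling moved the median of all probe sets from −0.07 to 0.04 and their calls to 442 higher and 107 lower, from 480 and 340, while quantile normalization gave 500 and 206. MYC also lost its call with quantile normalization (adjusted p = 0.0549), without the filter (0.0541) and without the intensity trend (0.0655). The untreated arrays at 4 h enter both this difference and the rise with time.

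At 16 h MYC was at 3016 to 3703 in the 6 arrays with TNF 100 and at 3791 to 4640 in the 6 arrays without TNF, and the sets did not overlap. The difference was −0.25 ± 0.14 and did not pass (adjusted p = 0.194), although it passed with the replicate number as a block over all times (adjusted p = 0.0466). TNF 5 arrays, at 3431 to 4985, spanned both sets. From 4 to 16 h the mean of MYC rose in 9 of 9 treatments, in 8 of them without overlap of the arrays. The exception was TNF 100 + EGF 100, with 3163 and 2284 at 4 h and 3016 and 3281 at 16 h. Over all groups the mean of MYC ranged 3.08-fold, from 1463 in untreated cells at 4 h to 4554 in TNF 5 + insulin 5 at 16 h.

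**Figure D1:**
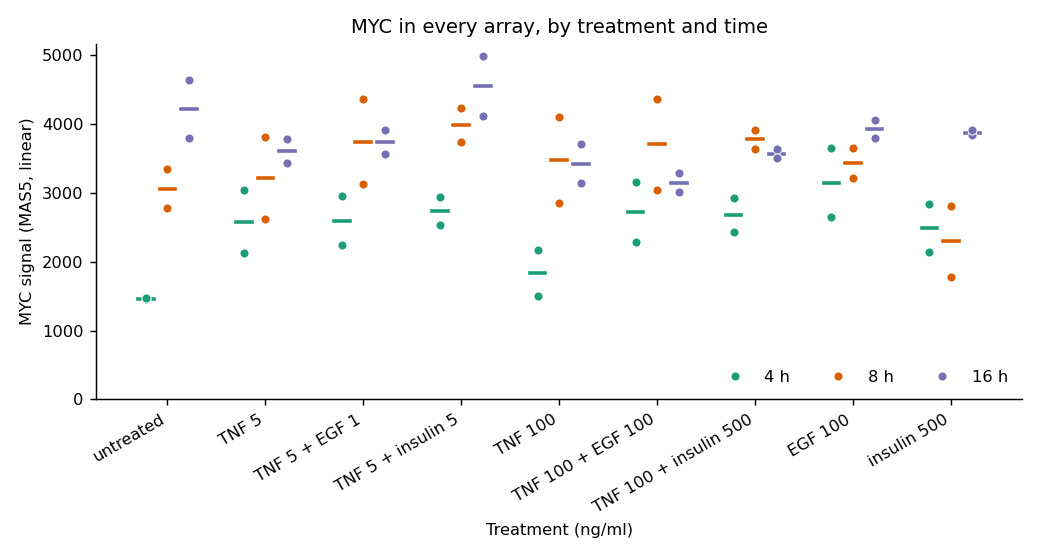
MYC signal (linear MAS5 signal, y axis from 0) in each of the 54 arrays, by treatment (x axis, doses in ng/ml) and time (colour). Points are arrays and bars are group means of 2 arrays; untreated cells at 4 h, at 1452 and 1475, lie below every other group.

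Ribosome biogenesis genes moved with TNF mainly at 16 h, and downward. TNF 100 was given alone, with EGF 100 and with insulin 500, and each of these was set against the same background without TNF. The 3 differences share no array, and their mean at 16 h (6 arrays with and 6 without TNF) was tested after the values were seen. Of the 28 genes 17 fell and none rose, with a median of −0.41. Of all kept probe sets 18.6% were called lower and 10.8% higher, with a median of −0.09. In 20 of the 28 genes the difference was below 0 in all 3 backgrounds and in none was it above 0 in all 3, against 33.5% and 19.2% of all probe sets. In 11 of the 28 the 6 TNF arrays lay wholly below the 6 others, and in none above, against 8.96% and 6.41% of all probe sets.

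This count depends on how the arrays are scaled. With arrays centred on their median 7 genes fell (BYSL, WDR3, NOP16, RRS1, WDR12, WDR74 and MRTO4), with a median of −0.33 over the 28. All probe sets then gave 1599 calls higher and 1510 lower, against 1445 and 2500 as deposited. With quantile normalization 16 fell, among 1609 calls higher and 2141 lower. The log2 ACTB ratio ran from 0.03 to 0.40 in the arrays without TNF and from −0.08 to 0.63 in those with TNF 100. Their median signals ran from 124.7 to 154.7 and from 110.9 to 149. Summed signals of the marker lists ran from 585.3 to 984.9 without TNF and 568 to 679.5 with it for fibroblasts, from 129.1 to 302.6 and 130.2 to 173 for leukocytes, from 130.2 to 251.7 and 98.14 to 250.6 for endothelium, and from 65990 to 90270 and 53120 to 82390 for the epithelium. Their part in the result was not tested. In RNA of whole cultures, fewer cells with a transcript and less of it per cell cannot be told apart.

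Of 10 small-subunit factors 7 fell. BYSL (bystin), which acts late in the maturation of the small subunit, fell most among them. Its signal ran from 764.8 through a median of 973.9 to 1238 in the 6 arrays without TNF, and from 509 through 596.9 to 679.3 with TNF 100. The sets did not overlap, and TNF 5 lay between them with a median of 766.7. The difference was −0.73 ± 0.10 (adjusted p = 7.28e-07), or 0.60-fold. WDR3, a scaffold protein of the small-subunit processome, ran from 800.7 through 1078 to 1206 without TNF and from 557.1 through 624.2 to 688.9 with TNF 100. It fell by 0.73 ± 0.11 (adjusted p = 2.20e-06). For TNF 5 its median was 806.3, again between the other sets. WDR43, another processome subunit, fell by 0.64 ± 0.23 (adjusted p = 0.0317), from a median of 499.2 to one of 352.1. NOP14 (−0.43 ± 0.13), the RNA-binding assembly factor PNO1 (−0.42 ± 0.12) and UTP18 (−0.32 ± 0.10) fell as well, each without overlap of the arrays.

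DDX21, an RNA helicase that binds ribosomal RNA and its genes, had 3489 to 4563 without TNF at 16 h and 2624 to 3289 with it. It fell by 0.44 ± 0.16 (adjusted p = 0.0405). RRP9, a protein of the snoRNP that guides the first cleavages of the precursor, HEATR1 and RRP12 did not pass. RRP9 differed by 0.01 ± 0.20 and HEATR1 by −0.09 ± 0.11. RRP12 differed by −0.65 ± 0.56, and its replicates had a pooled SD of log2 1.06, the widest of the 28 genes. WDR43 lost its call with quantile normalization (adjusted p = 0.0835), and DDX21 lost it without the filter (0.0606), without the intensity trend (0.0529), with only the treatments compared (0.0633) and with arrays centred on their median (0.181). A single array decides some of these calls. PNO1 lost it without EGF 100 replicate 1 (adjusted p = 0.0552) and UTP18 without TNF 100 + insulin 500 replicate 2 (0.0507). WDR43 and DDX21 each lost it when any of 8 of the 12 arrays was left out. The highest adjusted p was 0.124 for WDR43, without insulin 500 replicate 2, and 0.115 for DDX21, without TNF 100 replicate 1.

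Of 10 large-subunit factors 8 fell. RRS1, which helps to bring the small 5S particle into the large subunit, had 896.2 to 1394 in the arrays without TNF (median 1102) and 623 to 773.4 with TNF 100 (median 666.1). The sets lay apart, and TNF 5, at 934.4 to 1064, lay within the range of cells without TNF. RRS1 fell by 0.71 ± 0.14 (adjusted p = 8.62e-05). MRTO4, a nuclear relative of the stalk protein that holds its place during assembly, went from a median of 1952 to one of 1332. It fell by 0.63 ± 0.12 (adjusted p = 5.98e-05). At TNF 5 its median was 1369, next to that of TNF 100. WDR12, a partner of PES1 in the complex that matures the large subunit's RNA, fell by 0.52 ± 0.10 (adjusted p = 1.48e-04), from 1351 to 1709 without TNF to 980.8 to 1257 with it. PES1 itself fell by 0.41 ± 0.14 (adjusted p = 0.0189).

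WDR74, which works with an ATPase that remodels the early large subunit, had 1657 to 2118 without TNF and 1168 to 1694 with TNF 100. The sets overlapped through 1 array of TNF 100 + EGF 100 (1694). The fall was 0.45 ± 0.08 (adjusted p = 1.43e-05). RRP1B fell by 0.44 ± 0.14, NOP16 by 0.41 ± 0.10 and NLE1, a partner of the large ATPase that releases late factors, by 0.32 ± 0.10. NIP7 (−0.53 ± 0.23, adjusted p = 0.0800) and the RNA methyltransferase NOP2 (−0.19 ± 0.17, 0.442) did not pass. NIP7 passed with the replicate number as a block over all times (adjusted p = 0.0305), but not with a block at 8 h only. With the probe sets of a gene averaged, RRP1B (−0.13, adjusted p = 0.540), NLE1 (−0.20, 0.161) and NOP16 (−0.24, 0.0625) lost their calls, and NLE1 also lost it with quantile normalization (0.0604). NLE1 lost its call without untreated replicate 1 (adjusted p = 0.0749) or TNF 100 replicate 1 (0.0671). RRP1B lost it without untreated replicate 2 (0.0501) or TNF 100 + insulin 500 replicate 2 (0.0558). PES1 lost it without untreated replicate 1 (0.0913), TNF 100 + EGF 100 replicate 2 (0.0861) or TNF 100 + insulin 500 replicate 2 (0.0822).

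Of 3 snoRNP core proteins in the count 1 fell. NHP2, a core protein of box H/ACA snoRNPs, had 4327 to 4992 without TNF and 2978 to 4572 with it, and fell by 0.32 ± 0.08 (adjusted p = 0.00188). GAR1 of the same particles differed by −0.17 ± 0.13 (adjusted p = 0.388). FBL, the methyltransferase of box C/D snoRNPs, differed by −0.17 ± 0.09 (0.203), but it was called lower with quantile normalization and not with centred arrays. NOLC1, a chaperone of snoRNPs in nucleoli, fell by 0.33 ± 0.09 (adjusted p = 0.00280). Outside the count, NOP56 of the box C/D particle went from a median of 2420 to one of 1479 and fell by 0.64 ± 0.11 (adjusted p = 1.80e-05). DKC1, the pseudouridine synthase of box H/ACA snoRNPs, fell by 0.32 ± 0.08 (adjusted p = 0.00299).

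The nucleolar RNA-binding proteins NCL and NPM1 did not pass. NCL (nucleolin) ran from 6316 to 8799 without TNF and from 7606 to 8893 with TNF 100, a difference of 0.07 ± 0.10 (adjusted p = 0.659). NPM1 (nucleophosmin) differed by −0.05 ± 0.14 (0.835). POLR1B, the second largest subunit of RNA polymerase I, differed by 0.11 ± 0.21 (0.759), but its signals, at 116.3 to 258.2, lay close to the filter's 138.9. A p that misses the threshold does not show that these did not differ.

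**Figure D2:**
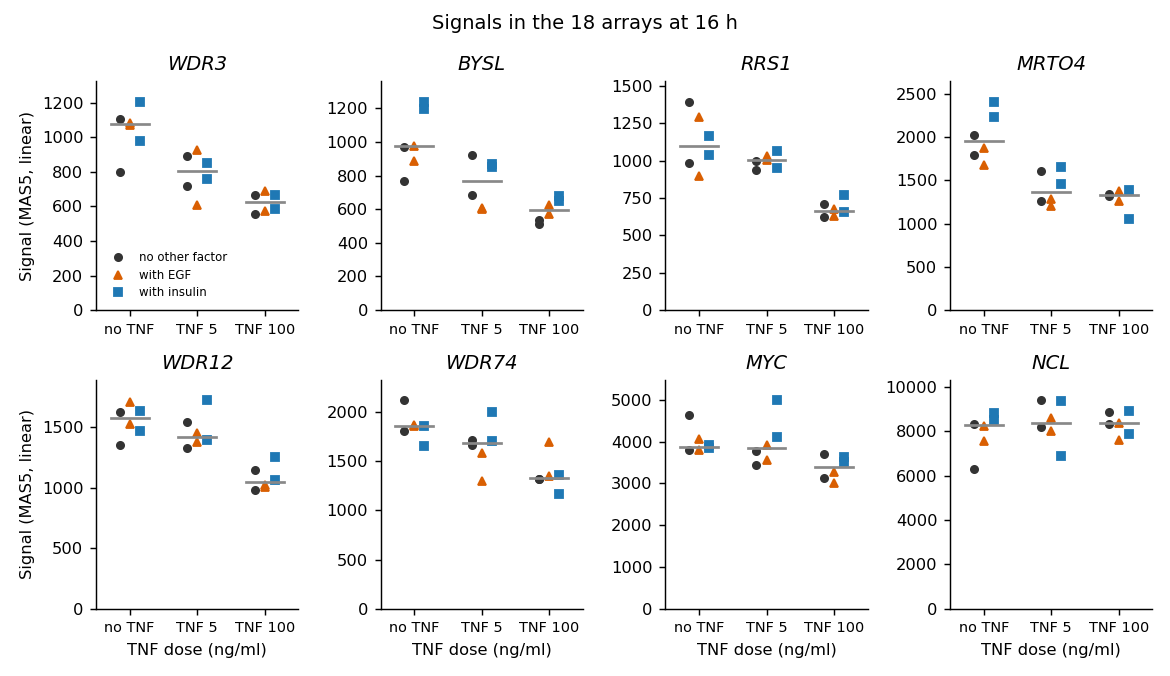
Signals (linear MAS5 signal, y axes from 0) of 8 genes in the 18 arrays at 16 h, grouped by TNF dose (x axis, ng/ml). Points are arrays, their shape gives the second factor, and grey bars are medians of 6 arrays; WDR3, BYSL, RRS1, MRTO4, WDR12 and MYC do not overlap between no TNF and TNF 100, while WDR74 and NCL do.

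At 4 and 8 h the picture differed. The median TNF 100 difference of the 28 genes over the 3 backgrounds was −0.11 at 4 h and 0.01 at 8 h, against −0.08 and −0.04 for all probe sets. At 4, 8 and 16 h in turn, the difference of RRS1 was −0.62, 0.25 and −0.71, and that of BYSL −0.18, 0.26 and −0.73. For DDX21 it was 0.40, 0.52 and −0.44, so that it was the 1 gene called higher over the 3 times together (0.16 ± 0.09, adjusted p = 0.00207). In that test over 3 times 15 genes were called lower, with a median of −0.12 over the 28. Its background was 24.7% of probe sets lower and 12.6% higher, with a median of −0.07. The largest falls were those of WDR3 (−0.39 ± 0.06), WDR12 (−0.37 ± 0.06), RRS1 (−0.36 ± 0.08), RRP1B (−0.35 ± 0.08), MRTO4 (−0.33 ± 0.07) and PES1 (−0.28 ± 0.08). UTP18 fell by 0.25, NLE1 by 0.23, BYSL by 0.22, NOP14 and WDR74 by 0.18 each and NHP2 by 0.11. NOLC1 (−0.08), PNO1 (−0.06) and NOP16 (−0.06) were called with a mean near 0, and their differences at 4 and 16 h had opposite signs. With probe sets averaged, NOLC1 (adjusted p = 0.0788), RRP1B (0.222) and NOP16 (0.131) lost their calls, and the other probe sets of NOP16 were called in opposite directions (−0.36, 1.10e-04, and 0.37, 0.0355). Arrays centred on their median gave 8 calls, 2 higher and 6 lower, among 1832 probe sets higher and 2242 lower. With quantile normalization NOP14 (0.171), NLE1 (0.0666) and PES1 (0.0833) were lost, and NOP14 also without the filter (0.0642), without the intensity trend (0.0541) and with only the treatments compared (0.0702). Single arrays ended 4 of these calls. NOP14 lost its call for 17 of the 36 arrays left out, most so without insulin 500 16 h replicate 2 (0.162). PNO1 lost it without EGF 100 16 h replicate 1 (0.108) and 5 other arrays, PES1 without untreated 16 h replicate 1 (0.0648) and 2 others, and NHP2 without TNF 100 + EGF 100 16 h replicate 2 (0.0682) or insulin 500 16 h replicate 1 (0.0501). With the 8 h replicate numbers as a block MYC (0.05, adjusted p = 0.0174), WDR43 (−0.14, 8.36e-04) and NIP7 (−0.36, 0.0400) passed too, which made 19. All probe sets gave 5662 calls with that block.

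Whether the TNF effect changed with time was itself tested. Over the 3 backgrounds 8 genes passed, all with a lower difference at 16 h than at 4 h, and none with a higher one. Of all probe sets 6.23% and 6.20% did. DDX21 changed by −0.84 ± 0.23 (adjusted p = 0.00576), NOP16 by −0.58 ± 0.15 (0.00976), BYSL by −0.55 ± 0.15 (2.77e-05) and NOLC1 by −0.51 ± 0.12 (0.0123). PNO1 changed by −0.49 ± 0.17 (0.0363), WDR74 by −0.35 ± 0.11 (0.00726) and WDR3 by −0.29 ± 0.15 (0.00321). RRS1, at −0.10 ± 0.19 (adjusted p = 5.77e-04), passed through its difference at 8 h, which was 0.87 above that at 4 h. With the 8 h block 11 passed, MYC (−0.31, 0.0235) among them, beside 2148 calls over all probe sets. With centred arrays 5 passed, beside 619 calls higher and 588 lower over all probe sets. With probe sets averaged NOLC1 (0.0891), NOP16 (0.135) and WDR74 (0.112) were lost, and without the 8 h arrays WDR3 (0.258) and RRS1 (0.826). PNO1 was lost without the filter (0.0538) and with only the treatments compared (0.0660). PNO1 lost its call for 16 of the 36 arrays left out, most so without EGF 100 16 h replicate 1 (0.122).

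**Figure D3:**
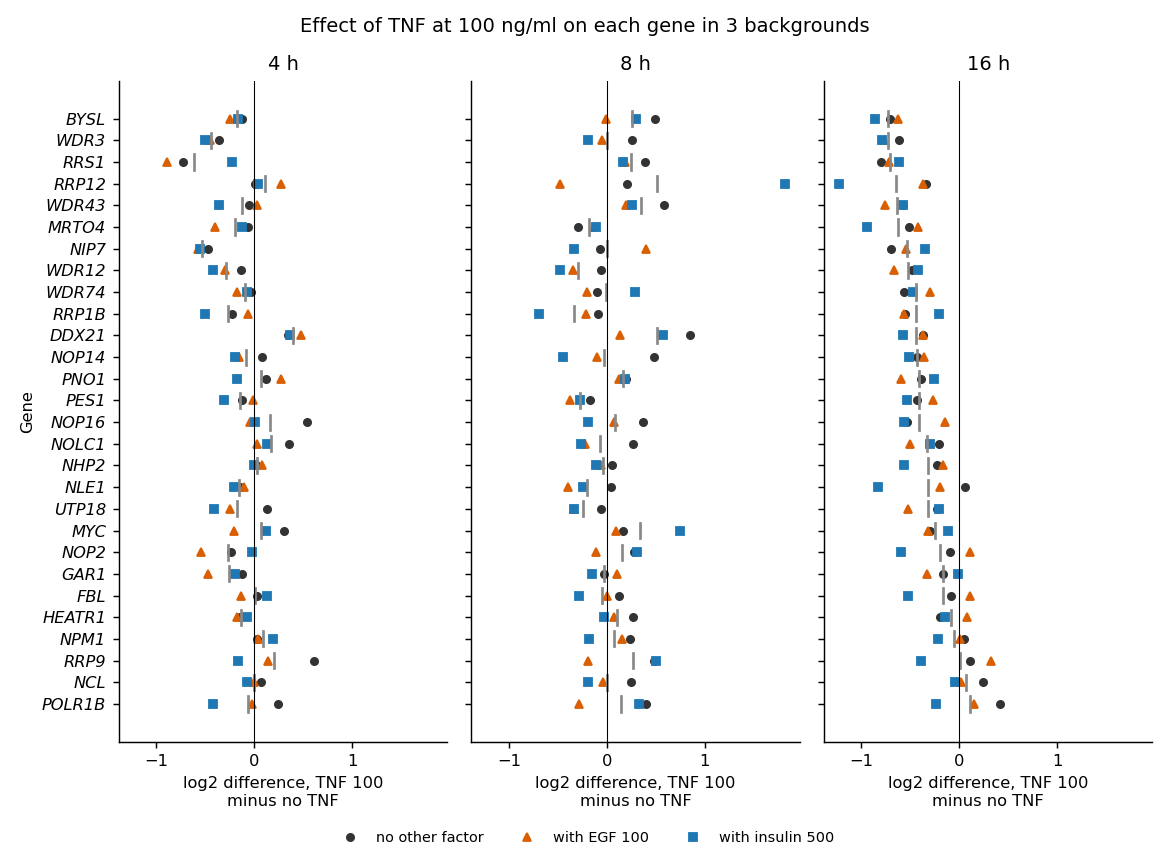
Log2 difference of TNF 100 minus no TNF (x axes) for each of the 28 genes (y axis, ordered by the mean at 16 h), at 4, 8 and 16 h. Symbols are the 3 backgrounds, each the difference of means of 2 arrays, and grey ticks are their mean. At 16 h 20 genes lie below 0 in all 3 backgrounds, at 4 h 13 and at 8 h 5. Of all probe sets 33.5% do so at 16 h, 33.3% at 4 h and 29.1% at 8 h.

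TNF 100 against untreated cells alone, without the backgrounds, called 5 of the 28 genes over the 3 times. NOP16 was called higher and BYSL, WDR3, RRS1 and WDR74 lower, against 6.69% and 9.66% of all probe sets. NOP16 had a mean of 0.13 ± 0.10 (adjusted p = 0.00702) that hides opposite differences. Its signal was 2301 and 1399 in untreated cells and 3086 and 2217 with TNF 100 at 4 h, but 1437 and 1818 against 1056 and 1175 at 16 h. At 4 h the sets overlapped, and at 16 h they did not. A second probe set of NOP16 was called lower (−0.24, adjusted p = 0.0262), and with probe sets averaged NOP16 was not called (0.276). RRS1 was at 953.3 and 1095 in untreated cells and 670.7 and 560 with TNF 100 at 4 h, at 783.9 and 548.6 against 1160 and 645.7 at 8 h, and at 982.2 and 1394 against 623 and 711.6 at 16 h. Its sets lay apart at 4 and 16 h and overlapped at 8 h, with a mean of −0.38 ± 0.14 (adjusted p = 0.00443). BYSL was at 634.8 and 529.5 against 797.4 and 848.1 at 8 h, and at 764.8 and 971.1 against 509 and 536.5 at 16 h. It lay above untreated cells at 8 h and below at 16 h, with a mean of −0.11 ± 0.10 (0.00474).

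WDR74 (−0.23 ± 0.08, adjusted p = 0.0128) and WDR3 (−0.24 ± 0.11, 0.0278) completed the list. WDR74 had 2118 and 1812 in untreated cells at 16 h and 1320 in both TNF arrays, but its second probe set had −0.04 (0.804), and with probe sets averaged it was not called (0.469). With quantile normalization WDR3 was not called (0.0528). With the 8 h block DDX21 was called higher as well (0.28, adjusted p = 0.00331). MYC differed by 0.06, NOLC1 by 0.14, NOP56 by −0.24, NCL by 0.19, NPM1 by 0.11, FBL by 0.02 and POLR1B by 0.35, and none passed. WDR3 lost its call without untreated 16 h replicate 2 (0.200), TNF 100 16 h replicate 1 (0.158), TNF 100 4 h replicate 1 (0.0587) or untreated 4 h replicate 2 (0.0568). WDR74 lost it without untreated 16 h replicate 1 (0.213) or either TNF 100 array at 16 h (0.0806 and 0.0811), and the count fell to 3 without TNF 100 16 h replicate 1. Centred arrays left 1 gene, NOP16, with 853 probe sets higher and 603 lower. The change of this effect with time was called for BYSL (−0.58 ± 0.25, adjusted p = 0.0139) and NOP16 (−1.07 ± 0.25, 0.0201), both lower, against 1.31% of probe sets higher and 1.13% lower. MYC changed by −0.60, NOLC1 by −0.56, NOP56 by −0.53, NCL by 0.18, NPM1 by 0.02, FBL by −0.11 and POLR1B by 0.17 without passing. With the 8 h block DDX21 (−0.72, 0.0235) and RRS1 (−0.08, 0.0174) passed too. BYSL was lost without any of 4 arrays (up to 0.0938) and NOP16 without any of 4 (up to 0.186), both highest without untreated 16 h replicate 2. NOP16 was lost with probe sets averaged (0.524), and BYSL without the 8 h arrays (0.271) or both arrays of the highest ACTB ratio (0.055). No gene was left without untreated 16 h replicate 2 or TNF 100 16 h replicate 1, and 1 was left without TNF 100 4 h replicate 1, untreated 8 h replicate 2 or TNF 100 16 h replicate 2.

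No gene was called for the lower TNF dose. TNF 5 against untreated cells gave 0 calls by limma (4 genes had an unadjusted p under 0.05), beside 4.26% of probe sets called higher and 2.55% lower. The median of the 28 genes was −0.02 with TNF 5, against −0.04 for all probe sets. With TNF 100 that of the 28 genes was −0.03. MYC differed by 0.21, NOLC1 by 0.02, NOP56 by −0.07, NCL by 0.07, NPM1 by −0.09, FBL by −0.09 and POLR1B by 0.11. With the 8 h block MYC passed (adjusted p = 0.0242), and 1 gene passed without untreated 4 h replicate 1. At 16 h 27 of the 28 differences were below 0 and 1 above, with a median of −0.20. Of all probe sets 44.2% were above 0, with a median of −0.05. Against untreated cells at 16 h TNF 5 + EGF 1 had 23 of the 28 below 0 (median −0.25) and TNF 5 + insulin 5 had 18 (median −0.04). For these mixtures 46.5% and 43.4% of all probe sets were above 0, with medians of −0.03 and −0.06. TNF 100 against TNF 5 gave 0 calls as well (3 unadjusted), against 0.626% higher and 0.641% lower. All probe sets gave 84 calls higher and 86 lower as deposited, 103 and 65 with quantile normalization and 63 and 25 with centred arrays. There MYC differed by −0.15, NOLC1 by 0.12, NOP56 by −0.17, NCL by 0.12, NPM1 by 0.19, FBL by 0.12 and POLR1B by 0.24. All these comparisons with untreated cells share its 6 arrays.

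With insulin 500 the difference over 3 times was above 0 in 26 of the 28 genes, with a median of 0.18 against 0.00 for all probe sets. At 4, 8 and 16 h in turn it was above 0 in 23, 23 and 18 genes, against 48.2%, 49.2% and 52% of all probe sets. Over the 3 times it was called in WDR3 alone, beside 0.082% of probe sets higher and 0.149% lower (7 of the 28 had an unadjusted p under 0.05). WDR3 had 1537 and 1337 with insulin against 880.7 and 1044 without at 4 h, 1138 and 1398 against 655.3 and 704.7 at 8 h, and 978.9 and 1206 against 800.7 and 1108 at 16 h. The arrays lay apart at 4 and 8 h and overlapped at 16 h. The rise was 0.55 ± 0.11 (adjusted p = 0.0249). It was lost without insulin 500 8 h replicate 2 (adjusted p = 0.207), the array with the second highest ACTB ratio, and also without untreated 8 h replicate 1 (0.133) or 2 (0.0932), insulin 500 4 h replicate 1 (0.0932) or 2 (0.0661), or untreated 4 h replicate 1 (0.0558). With the 8 h block WDR3 (0.0113) and BYSL (0.51, adjusted p = 0.0443) passed, and with centred arrays none did, where all probe sets gave 1 call higher and 6 lower in place of 11 and 20.

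The arrays of insulin 500 lay wholly above untreated ones in 10 of the 28 genes at 4 h and in 15 at 8 h. Of all probe sets 14.7% and 14.5% did so. At 8 h 1 lay wholly below, against 13.2%. At 16 h 6 lay wholly above and 2 below, against 17.8% and 16.6% of all probe sets, and the median difference was 0.07. BYSL at 8 h, for example, had 861.4 and 927.5 with insulin and 634.8 and 529.5 in untreated cells. MYC had 2831 and 2143 with insulin against 1452 and 1475 at 4 h, and 2813 and 1777 against 3346 and 2775 at 8 h, so that it lay above untreated cells at 4 h and overlapped with them at 8 h. Over the 3 times MYC differed by 0.06, NOLC1 by 0.28, NOP56 by 0.27, NCL by 0.24, NPM1 by 0.04, FBL by 0.20 and POLR1B by 0.22, none of which passed, although MYC did with the replicate number as a block over all times (adjusted p = 0.0331).

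With EGF 100 the difference over 3 times was above 0 in 23 of the 28 genes, with a median of 0.09 against −0.03 for all probe sets. At 4, 8 and 16 h in turn it was above 0 in 20, 26 and 11 genes, against 46.1%, 45.4% and 45.3% of all probe sets. No gene was called (4 had an unadjusted p under 0.05), beside 0.529% of probe sets higher and 0.0671% lower. The arrays lay wholly above untreated ones in 10 genes at 4 h and 11 at 8 h, against 13.4% and 12.4% of all probe sets. At 16 h 2 lay wholly above and 3 below, against 15.9% and 22.4% of all probe sets, and the median difference was −0.04. MYC differed by 0.38 ± 0.14 (adjusted p = 0.0953) and passed with the 8 h block (0.00657). That mean holds a log2 difference of 1.08 at 4 h, one of 0.17 at 8 h and one of −0.10 at 16 h. NOLC1 differed by 0.27, NOP56 by 0.07, NCL by 0.13, NPM1 by 0.09, FBL by 0.04 and POLR1B by 0.02. EGF 100 against insulin 500 gave 0 calls (2 unadjusted), against 0.544% higher and 0.0745% lower. MYC differed there by 0.32, NOLC1 by −0.01, NOP56 by −0.21, NCL by −0.11, NPM1 by 0.05, FBL by −0.16 and POLR1B by −0.20.

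**Figure D4:**
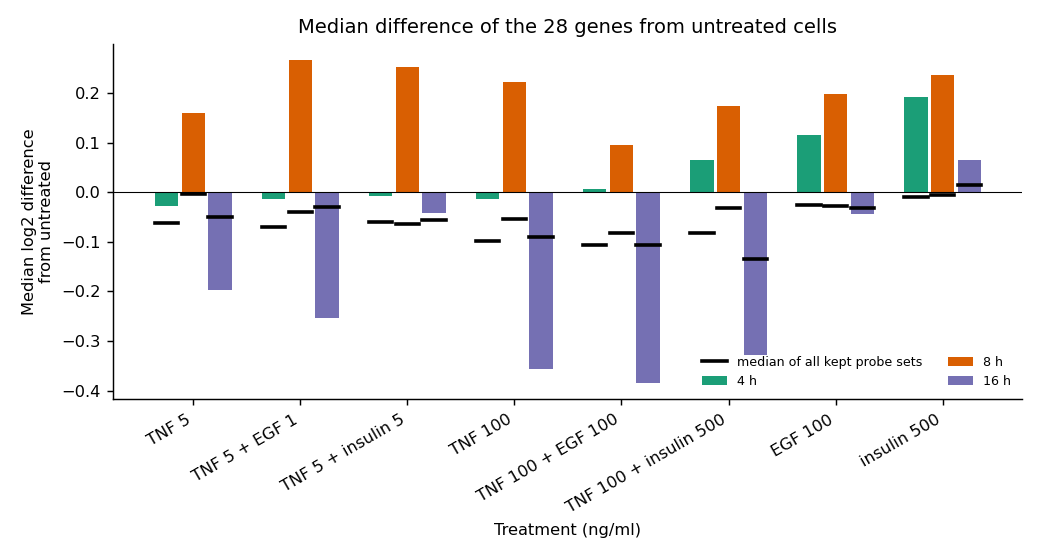
Median log2 difference from untreated cells (y axis) of the 28 genes, for 8 treatments (x axis, doses in ng/ml) at 4, 8 and 16 h (colours). Black lines are medians of all 13422 kept probe sets; with TNF 100, alone or mixed, the bars at 16 h lie at −0.33 to −0.39, and all 8 bars at 8 h lie above 0. All bars of a time share the same 2 untreated arrays.

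Adding a growth factor to TNF changed few of these genes. TNF 100 + insulin 500 against TNF 100 called NLE1 lower, beside 0.41% of probe sets higher and 0.0894% lower. NLE1 had 572.3 and 787.1 with TNF 100 and 335.1 and 337.6 with insulin added at 16 h, the lowest of any group, while 4 and 8 h differed by 0.03 and 0.00. The mean fall was 0.31 ± 0.10 (adjusted p = 0.0112). It was lost without TNF 100 16 h replicate 2 (0.436), TNF 100 + insulin 500 16 h replicate 1 (0.112) or replicate 2 (0.0889), and with probe sets averaged (0.507). MYC differed by 0.26, NOLC1 by −0.01, NOP56 by 0.12, NCL by −0.05, NPM1 by −0.14, FBL by −0.05 and POLR1B by −0.25. TNF 100 + EGF 100 against TNF 100 called none (1 unadjusted), against 0.134% higher and 0.0894% lower (18 and 12 probe sets, or 11 and 3 with centred arrays). In it MYC differed by 0.18, NOLC1 by −0.10, NOP56 by −0.11, NCL by −0.06, NPM1 by 0.05, FBL by 0.01 and POLR1B by −0.38.

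At the low doses limma called 0 probe sets of all 13422 in either comparison (0%). Among the 28 genes an unadjusted p under 0.05 was reached by 0 in TNF 5 + EGF 1 against TNF 5 and by 1 in TNF 5 + insulin 5 against TNF 5. MYC differed by 0.10 and 0.25, NOLC1 by 0.16 and 0.23, NOP56 by −0.08 and −0.07, NCL by 0.06 and 0.02, NPM1 by 0.20 and 0.10, FBL by 0.09 and 0.07 and POLR1B by 0.19 and 0.03.

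Departure from additivity was tested as an interaction, the effect of the mixture minus the effects of both parts. None of the 28 genes passed for EGF (2 unadjusted; 0.0149% of probe sets were called in each direction) or for insulin (3 unadjusted; 0.00745% called higher and 0% lower). The interaction was below 0 in 22 genes for EGF and in 24 for insulin, with medians of −0.16 and −0.17 against 0.01 and 0.00 for all probe sets. At 4, 8 and 16 h in turn it was above 0 in 9, 3 and 14 genes for EGF, against 51.9%, 49.8% and 50% of all probe sets. For insulin these were 7, 6 and 10 genes, against 53.3%, 52.3% and 46.1%. For MYC it was −0.20 ± 0.19 with EGF and 0.19 ± 0.19 with insulin, and for NOLC1 −0.37 ± 0.12 and −0.28 ± 0.12. NOP56 had −0.17 and −0.15, NCL −0.19 and −0.29, NPM1 −0.04 and −0.17, FBL −0.03 and −0.25 and POLR1B −0.40 and −0.46. Both interactions share the untreated and the TNF 100 arrays.

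With time the genes moved in both directions. In untreated cells MYC, WDR74 (0.67 ± 0.13, adjusted p = 0.00124) and RRS1 (0.19 ± 0.24, 0.0405) were called higher, and NLE1 lower (−0.80 ± 0.17, 0.00150). The background was 5.7% of probe sets higher and 3.89% lower. WDR74 had 1232 and 1218 at 4 h, 1422 and 1403 at 8 h and 2118 and 1812 at 16 h, with no overlap. NLE1 had 1135 and 1111 at 4 h, 1164 and 946.5 at 8 h and 773.3 and 532.6 at 16 h. RRS1 passed through a dip at 8 h, to 783.9 and 548.6. NOLC1 differed by 0.19, NOP56 by −0.04, NCL by −0.20, NPM1 by −0.02, FBL by −0.15 and POLR1B by 0.12. Without untreated 16 h replicate 2 the count fell to 2, since NLE1 (0.215) and RRS1 (0.196) were lost. RRS1 was also lost without untreated 8 h replicate 2 (0.485) or 4 h replicate 2 (0.0594), and WDR74 without untreated 16 h replicate 1 (0.0763). With centred arrays MYC and NLE1 remained called.

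The mean over all 9 treatments, a test added later on 18 arrays per time, called 4 genes higher and 14 lower from 4 to 16 h, beside 31.6% and 30.9% of probe sets. NLE1 fell most. Its signal ran from 941.5 through a median of 1077 to 1226 at 4 h, from 848.8 through 1165 to 1419 at 8 h and from 335.1 through 590.1 to 787.1 at 16 h. The arrays at 16 h lay below all others, in 9 of 9 treatments, and the fall was 0.91 ± 0.06 (adjusted p = 2.62e-17). NOP16 (−0.60 ± 0.06), NIP7 (−0.54 ± 0.13), WDR12 (−0.51 ± 0.06), RRP9 (−0.51 ± 0.12), MRTO4 (−0.47 ± 0.07), NOP14 (−0.44 ± 0.07), NHP2 (−0.39 ± 0.05), PNO1 (−0.37 ± 0.07), RRP1B (−0.33 ± 0.08), FBL (−0.29 ± 0.05), WDR3 (−0.28 ± 0.06), UTP18 (−0.21 ± 0.06) and NOLC1 (−0.16 ± 0.05) fell as well. NHP2 was higher at 8 h than at 4 h by 0.16 before it fell.

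Against them MYC rose by 0.65 ± 0.08 (adjusted p = 3.09e-08), WDR74 by 0.31 ± 0.04 (1.51e-08), GAR1 by 0.25 ± 0.08 (0.00879) and BYSL by 0.15 ± 0.06 (5.36e-04). GAR1 was higher at 16 h than at 4 h in 9 of 9 treatments and WDR74 in 8 of 9. NCL (−0.12 ± 0.06, 0.176), NPM1 (−0.12 ± 0.08, 0.430) and POLR1B (0.17 ± 0.12, 0.448) did not pass, but a second probe set of NPM1 was called lower (−0.36, adjusted p = 1.39e-06). NOP56 fell by 0.32 ± 0.06 (1.27e-05). The median change of the 28 genes from 4 to 16 h was −0.13 in treatments without TNF, −0.02 with TNF 5 and −0.42 with TNF 100.

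**Figure D5:**
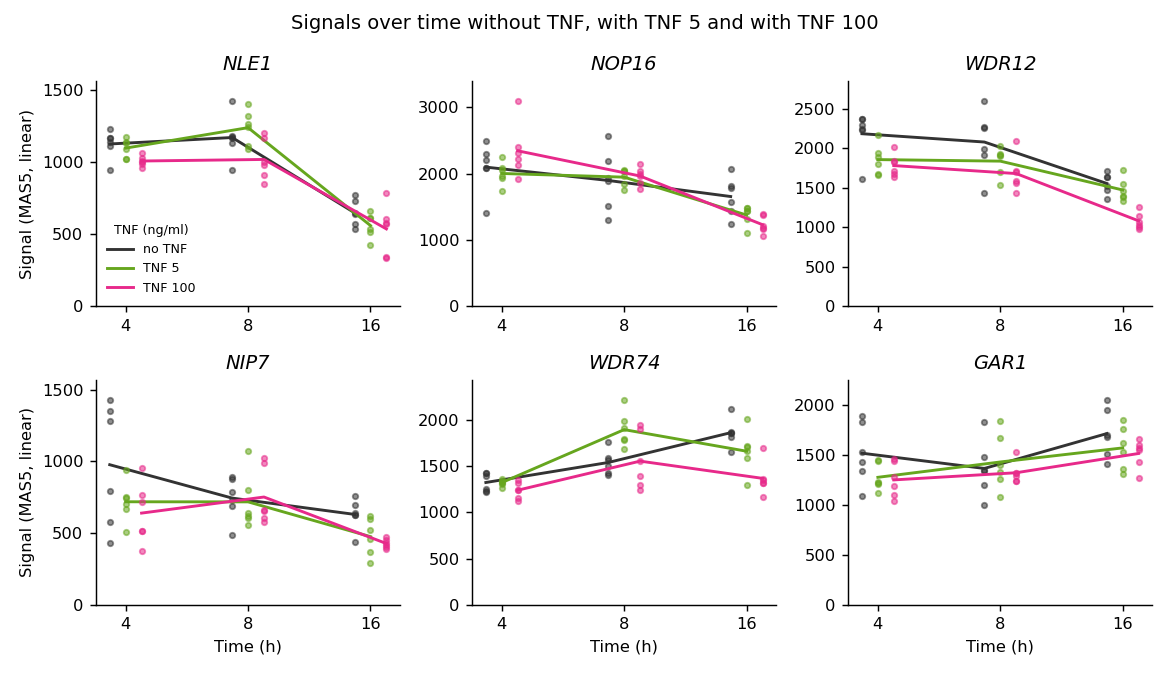
Signals (linear MAS5 signal, y axes from 0) of 6 genes at 4, 8 and 16 h (x axes, not to scale), without TNF, with TNF 5 and with TNF 100. Points are arrays, 6 per time and dose, and lines join their means; NLE1 at 16 h, at 335.1 to 787.1, lies below all arrays of 4 and 8 h, and WDR74 at 16 h is lower with TNF 100 than without.

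When all 8 treatments were set against untreated cells at once, 9 of the 28 genes differed, against 18.7% of all probe sets. They were BYSL (adjusted p = 1.93e-04), WDR3 (2.47e-04), WDR74 (7.57e-04), RRS1 (0.00199), NLE1 (0.00627), NOLC1 (0.0256), MRTO4 (0.0331), WDR12 (0.0340) and NOP16 (0.0413). NOP56 passed outside the count (0.0283), and MYC did not (0.0583). Of the 54 arrays, leaving out 1 ended the call of NOP16 for 37 arrays and those of WDR12 and MRTO4 for 10 each, with adjusted p up to 0.119, 0.0748 and 0.116. NOLC1 lost its call without untreated 4 h replicate 2 (0.055), and NLE1 without TNF 100 + insulin 500 16 h replicate 1 (0.0536) or 2 (0.0508). With centred arrays 2 of the 28 passed.

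Other genes of the pathway were counted at 16 h with TNF 100 over the 3 backgrounds, in lists that hold no gene of the 34. These lists too were chosen with earlier results of these data known. Of 29 other small-subunit processome genes 15 fell and none rose, with a median of −0.31; the helicase DDX10 fell by 0.67 ± 0.08 and NOL11 by 0.63 ± 0.10. Of 35 other large-subunit assembly genes 15 fell, with a median of −0.35, among them the helicase DDX51 (−1.66 ± 0.48) and PAK1IP1 (−1.05 ± 0.24). Of 9 snoRNP genes 7 fell, led by SHQ1, a chaperone of dyskerin, at −1.06 ± 0.17. Of 10 RNA exosome genes 7 fell, with EXOSC2 at −1.08 ± 0.19. Of 13 genes of the RNA polymerase I machinery 5 fell, such as POLR1G (−0.73 ± 0.11) and the initiation factor RRN3 (−0.61 ± 0.21). Of all probe sets 18.6% did. With centred arrays 4 small-subunit, 9 large-subunit, 4 snoRNP, 4 exosome and 4 polymerase genes fell, and none rose. All probe sets then gave 1599 calls higher and 1510 lower, against 1445 and 2500 as deposited.

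Of 40 ribosomal protein genes limma called 0 at 16 h with TNF 100, under each of the 3 scalings, with a median of 0.06. With time over the 9 treatments 23 of the 40 were called higher and none lower, with a median of 0.21. That direction depends on the scaling, since quantile normalization gave 6 higher and 6 lower, with a median of 0.02. In the MYC and MAX network 1 of 10 genes was called, MLXIPL, which rose by 1.11 ± 0.34. Of 21 MYC targets outside the ribosome 12 fell, among them ornithine decarboxylase ODC1 (−0.83 ± 0.08) and the phosphatase CDC25A (−1.87 ± 0.32). Of 14 genes of purine and pyrimidine synthesis 10 fell, with PPAT, the first enzyme of purine synthesis, at −0.89 ± 0.09.

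The largest median among these lists was that of genes for DNA replication. Of 27 genes of the G1/S transition and replication 26 fell at 16 h with TNF 100, with a median of −1.38. RRM2 of ribonucleotide reductase (−2.07 ± 0.11) and GINS2 of the replicative helicase (−3.42 ± 0.19) were among them. With time over the 9 treatments 27 of 27 fell, with a median of −1.47. These genes moved in the same arrays as the ribosome biogenesis genes, and their part in that fall was not tested. Among epithelial markers 4 of 7 fell at 16 h with TNF 100, from CDH1 at −0.30 ± 0.08 to VIL1 at −2.44 ± 0.18, and 7 of 7 fell with quantile normalization and 3 with centred arrays. Among the 2 leukocyte markers CD14 fell (−1.34 ± 0.24).

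Where a gene has several probe sets, they did not always move alike. For NOP16 at 16 h with TNF 100 the probe set described fell by 0.41 and a second one by 0.82 (adjusted p = 1.88e-05), but another had 0.52 (0.0558). A second probe set of RRP1B had 0.18 (0.734) and one of NLE1 −0.08 (0.802), both not called. The second probe sets of PNO1 (−0.49, 0.0233), WDR74 (−0.40, 0.0671) and NOLC1 (−0.32, 0.261) had the same sign as those described, and of these PNO1 passed.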

How the data were processed

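RNA of 54 HT-29 cultures was hybridized to Affymetrix arrays. The deposited values are linear MAS5 signal intensities, per the labels and the submitters' processing notes, which name MAS5 without a version; the authors' settings are not given in the sources used here. The table has 22283 probe sets, 68 of them controls that were not used. Tests ran on log2(signal + 12.49), where the pseudocount is the 10th percentile of the signals. Probe sets below the overall log2 median (7.24, signal 138.9) in all 27 group means were dropped, which left 13422. A gene is described by its kept probe set of the highest mean signal that is listed with that symbol alone. Symbols were updated through Entrez IDs to RefSeq.

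limma 3.58.1 (R 4.3.3) fitted 1 mean per group to all arrays, with an intensity trend and 27 residual degrees of freedom. A moderated F test over the contrasts decided each comparison. Its direction is the mean of the differences at 4, 8 and 16 h, or 16 h minus 4 h for changes with time. For all treatments at 4 h it is the mean over the 8 treatments. P-values were adjusted over all kept probe sets. Arrays with the same replicate number were correlated in their residuals most within 8 h (36 of 36 pairs above 0.1, median 0.428). Within 4 h (27 of 36, median 0.2) and 16 h (31 of 36, median 0.205) they were correlated less. Replicate numbers entered as blocks in alternatives. The labels name biological duplicates. The procedure was run on simulated data with independent noise in every array. That noise lacks the residual correlation given above, so it does not show how this correlation affects the calls.

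The 34 genes and the companion lists were chosen with earlier results of these data known. In each comparison MYC, NOLC1, NOP56, NCL, NPM1, FBL and POLR1B are given with their values, and the called genes with the largest changes; from other lists up to 4 called genes. The tests over 3 backgrounds, over 9 treatments and over all treatments at 4 h were added after the values were seen.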

Additional observations from a re-analysis of the deposited data

Results flagged for a closer look

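The effect of TNF 100 differed between times, by the test of that difference itself, in these genes. The values are the log2 difference at 16 h minus that at 4 h. Against untreated cells alone they were −0.58 for BYSL and −1.07 for NOP16. Over the 3 backgrounds they were −0.51 for NOLC1, −0.55 for BYSL, −0.29 for WDR3, −0.49 for PNO1, −0.84 for DDX21, −0.58 for NOP16, −0.10 for RRS1 and −0.35 for WDR74. The values over 3 backgrounds include the arrays of the comparison with untreated cells. Groups of 2 arrays allow no test for outlying arrays.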

How the results depend on the processing

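Counts are of the 28 genes called. With arrays centred on their median they were 1 (not 5) for TNF 100 against untreated cells, 0 (not 1) for insulin 500, 0 (not 1) for TNF 100 + insulin 500 against TNF 100, 2 (not 4) for time in untreated cells, 0 (not 2) for the TNF 100 effect by time, 2 (not 9) for any treatment, 8 (not 16) for TNF 100 over 3 backgrounds, 7 (not 17) for the same at 16 h, 5 (not 8) for the same by time and 0 (not 3) for all treatments at 4 h. With centred arrays all probe sets gave 17 calls higher and 5 lower for TNF 100 + insulin 500 against TNF 100. They gave 514 and 294 for time in untreated cells, and 83 and 84 for the TNF 100 effect by time. Fits on the compared treatments alone gave 0 for TNF 100, insulin 500, TNF 100 + insulin 500 and the effect by time, and 1 for time in untreated cells. Averaged probe sets gave 3 for TNF 100, 2 for insulin 500 and 0 for TNF 100 + insulin 500. Without an intensity trend any treatment gave 5.

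Without the 8 h arrays TNF 5 and EGF 100 gave 1 each, insulin 500 gave 0 and the effect by time 1. Without both arrays of the highest ACTB ratio, a choice made after seeing the data, EGF 100 gave 1 and insulin 500 gave 0. The replicate block over all times gave 1 for TNF 5, 1 for EGF 100 and 3 for insulin 500. Of all 13422 probe sets 1196, 136 and 74 were called there. The block at 8 h only, where arrays of the same number were correlated most, gave 1, 1 and 2, and 4 for the effect by time. All probe sets gave 1200, 131 and 87 calls, and 472 for the effect by time. The block within each time gave 8 for TNF 100, 1 for TNF 5, 1 for TNF 100 against TNF 5, 1 for EGF 100, 4 for insulin 500, 1 for EGF 100 against insulin 500, 2 for TNF 100 + insulin 500, 4 for the effect by time and 17 for any treatment. Of all 13422 probe sets this block called 3347 for TNF 100, 1705 for TNF 5 and 503 for TNF 100 against TNF 5. It called 207 for EGF 100, 160 for insulin 500 and 320 for EGF 100 against insulin 500. For TNF 100 + insulin 500 it called 378, and for the effect by time 736. No other count of the 28 genes moved by over 1.5 times with a block.

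Leaving out 1 array gave 3 to 6 for TNF 100, 0 to 1 for TNF 5, insulin 500 and TNF 100 + insulin 500, 2 to 4 for time in untreated cells, 0 to 3 for the effect by time, 6 to 11 for any treatment, 13 to 18 for TNF 100 over 3 backgrounds, 12 to 17 at 16 h, 7 to 9 by time, 18 to 20 for time over 9 treatments and 2 to 3 for all treatments at 4 h. Signs turned for PNO1 (0.001) and NOP16 (0.006) over 3 backgrounds with centred arrays, DDX21 there without the 8 h arrays (−0.02), RRS1 in time in untreated cells without untreated 16 h replicate 2 (−0.056; up to 0.443 without untreated 16 h replicate 1) and WDR3 in all treatments at 4 h without untreated 4 h replicate 1 (−0.104; up to 0.138 without replicate 2). Of 1383 values of single genes under other settings 1249 kept their call or their lack of one, 106 lost the call, 25 gained it and 3 turned sign. Direction was compared only for genes called in the main fit. The causes were not tested.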
